A study of Mus musculus with 3 samples.

Results

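The genes described here are the collagens and the enzymes, chaperones, proteases and inhibitors that make, crosslink and break down collagen, as measured in a mouse pancreatic tumour line in culture and after growth in mice. They were taken by symbol: every gene named Col, number, a, number, and 22 named processing genes. Of these, 16 collagens and 18 processing genes had a value, so 34 genes were followed out of 11886 in the authors' deposited table. The line, mT3-2D-GFP, comes from a KPC tumour of C57BL/6 origin, KPC being a genetically engineered mouse model of pancreatic cancer, and all 3 groups carry its green fluorescent protein (GFP). The first group was the line in DMEM with 10% serum and 2 mM glutamine. The second was GFP-positive cells sorted from tumours in B6.CB17-Prkdcscid/SzJ (SCID) mice, which lack mature T and B cells. The third was GFP-positive cells sorted from tumours in immunocompetent C57BL/6 (WT) mice. RNA from 5 SCID tumours and from 6 WT tumours was mixed in equal amounts before sequencing. Each group is therefore 1 library, no difference between groups has a replicate check, and no p-value is given.

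All gene values are the authors' log2 fold changes between libraries, averaged over a gene's transcripts, and no level per library was used. The table's header names no log base; base 2 was taken because the submitters' notes list DESeq2, and every fold printed rests on it. The words higher and lower as calls mean at least 2-fold, or 1 on the log2 scale. Transcripts of 1 gene differed with a pooled SD, which measures transcripts and not animals, that was 0.33 for SCID minus line, 0.31 for WT minus line and 0.22 for WT minus SCID. Depth per library is unknown. The deposited values span only -2.49 to 2.77, and how this scale relates to a ratio of reads is not stated.

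Collagens are trimers of chains wound into a triple helix, in which glycine fills the first place of each set of amino acids that repeats along the chain. Procollagen chains are hydroxylated on proline and lysine in the endoplasmic reticulum, held by the chaperone HSP47, exported, trimmed by propeptidases and then crosslinked by lysyl oxidases. Fibrillar collagens form the bulk of the scar-like stroma for which pancreatic cancer is known, type IV collagen forms the sheet of basement membranes, and fibroblasts are the usual source of the fibrillar chains in this tumour.

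The repeat can be read from the genes themselves, and the length of its longest unbroken run sets the fibrillar class apart from the others. In GRCm38 (GENCODE M21), 83.1% of the 237 internal coding exons of Col1a1, Col5a1, Col11a1 and Col27a1 had a length divisible by 9 bases, the length that codes for 1 repeat, and 114 of them were exactly 54 bases long. The share was 45.2% for 5 type IV genes, 56.1% for the 7 other collagens (28.9 to 72% by gene) and 11.2% for the processing genes. It was 13.3% for the internal coding exons of all other transcripts matched to GENCODE. That last set counts every matched transcript of a gene, and the others 1 coding transcript per gene. To show the pattern, a 54-base exon of each of 3 fibrillar genes is printed 5′ to 3′ on the coding strand, with the glycine codon (GGN) that opens each of its 6 repeats in capitals. The 2 type IV stretches below them show a gap between runs of repeats, of 15 bases in Col4a1 and 12 in Col4a2. Only the glycine codon that opens each repeat on either side of the gap is in capitals. The Col4a1 gap lies just before codon 43, where the longest run of that gene starts, so it precedes that run and does not interrupt it.
Col1a1 (chr11:94939904-94939957, forward strand): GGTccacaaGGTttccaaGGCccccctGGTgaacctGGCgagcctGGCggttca
Col5a1 (chr2:27965251-27965304, forward strand): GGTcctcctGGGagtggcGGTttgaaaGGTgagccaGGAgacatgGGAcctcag
Col27a1 (chr4:63245069-63245122, forward strand): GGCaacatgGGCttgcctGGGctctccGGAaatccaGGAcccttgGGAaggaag
Col4a1 (chr8:11267603-11267656, reverse strand): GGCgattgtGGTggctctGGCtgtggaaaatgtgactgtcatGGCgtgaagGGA
Col4a2 (chr8:11415964-11416017, forward strand): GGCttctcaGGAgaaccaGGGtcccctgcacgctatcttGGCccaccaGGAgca

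The longest unbroken run of such repeats held 338 repeats in Col1a1, Col5a1 and Col11a1, and 217 in Col27a1. In the type IV genes the longest run was 39 to 66 repeats, and the repeats were split into 23 to 27 runs of 3 or more. The remaining collagens had longest runs between 30 repeats, in Col15a1 and Col18a1, and 87 repeats, in Col6a1 and Col6a2. No processing gene had a run above 3.

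**Figure D1:**
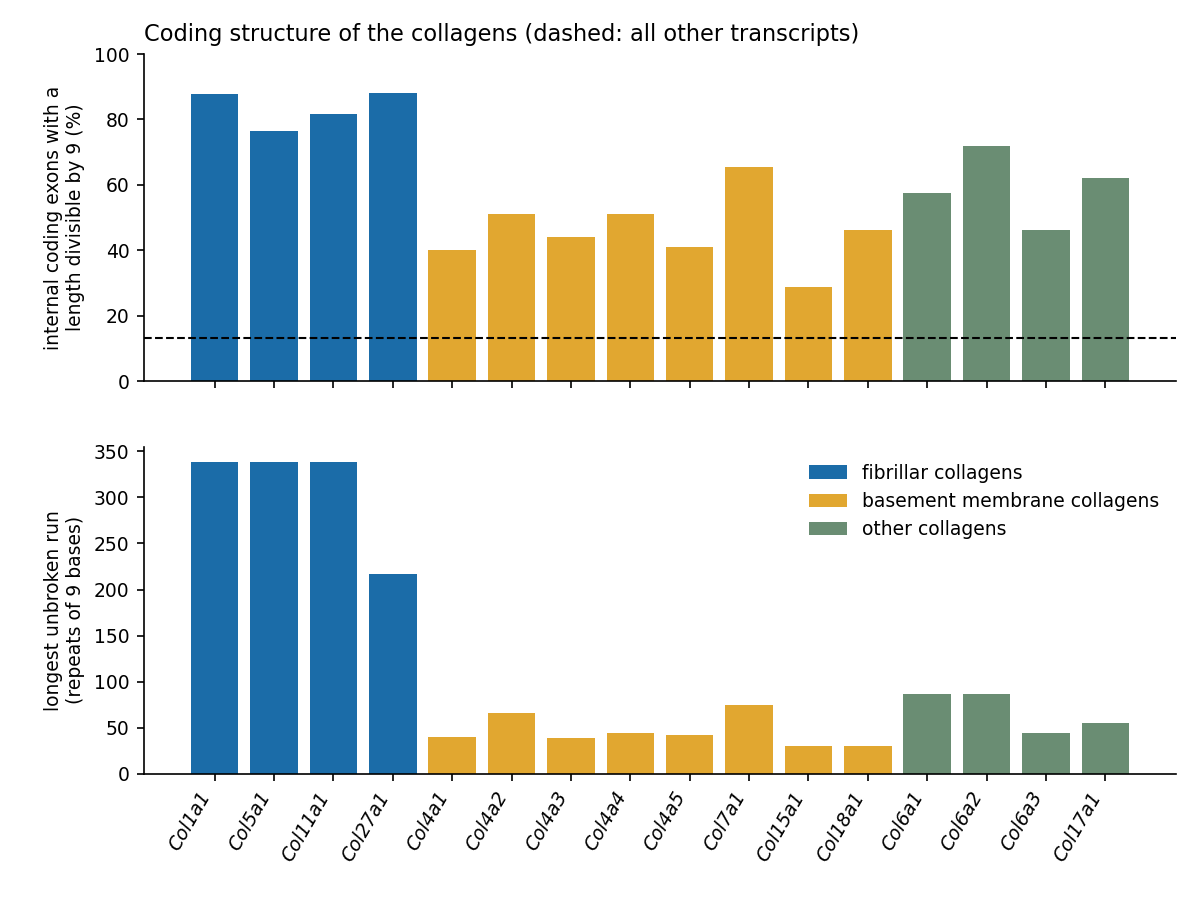
Coding structure of the 16 collagens from 1 coding transcript each. Upper bars give the share of internal coding exons with a length divisible by 9 (percent, dashed line 13.3% for all other matched transcripts). Lower bars give the longest unbroken run of glycine-first repeats (number of 9-base repeats). The 4 fibrillar genes are highest in both, with 76.6 to 88.1% and 217 to 338 repeats. They stand apart in run length only, as Col6a2 is near them in share at 72%.

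Against the cultured line, the SCID pool had higher RNA of 12 of the 34 genes by 2-fold or more and lower RNA of 0. Of all 11886 genes, 3.65% were higher and 2.62% lower. The median of the 34 was 0.74, beside -0.02 over all genes, and 30 of 34 lay above 0, beside 48.3% of all genes. In the WT pool 10 of the 34 were higher and 0 lower, beside 4.12% and 2.03% of all genes, with a median of 0.59 beside -0.01 and 29 of 34 above 0, beside 48.6%. Once values were corrected for their trend with GC content and transcript length, 29 and 28 lay above 0. Both comparisons use the same library of the line. The collagen median was 1.17 in SCID and 1.09 in WT, with 10 and 8 of 16 higher, and the processing median was 0.58 and 0.41, with 2 of 18 higher in each. With the GC and length trend removed the collagen median in WT was 0.71. In sorted cells a change in RNA per cell and a change in the number of host cells that passed the sort cannot be told apart. Of the host markers with a row, 4 of 5 for fibroblasts, the only one for pericytes and smooth muscle and 4 of 4 for endothelium lay above 0 in both pools, as did 3 of 4 for macrophages in SCID and 4 of 4 in WT; their values follow the gene lists.

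**Figure D2:**
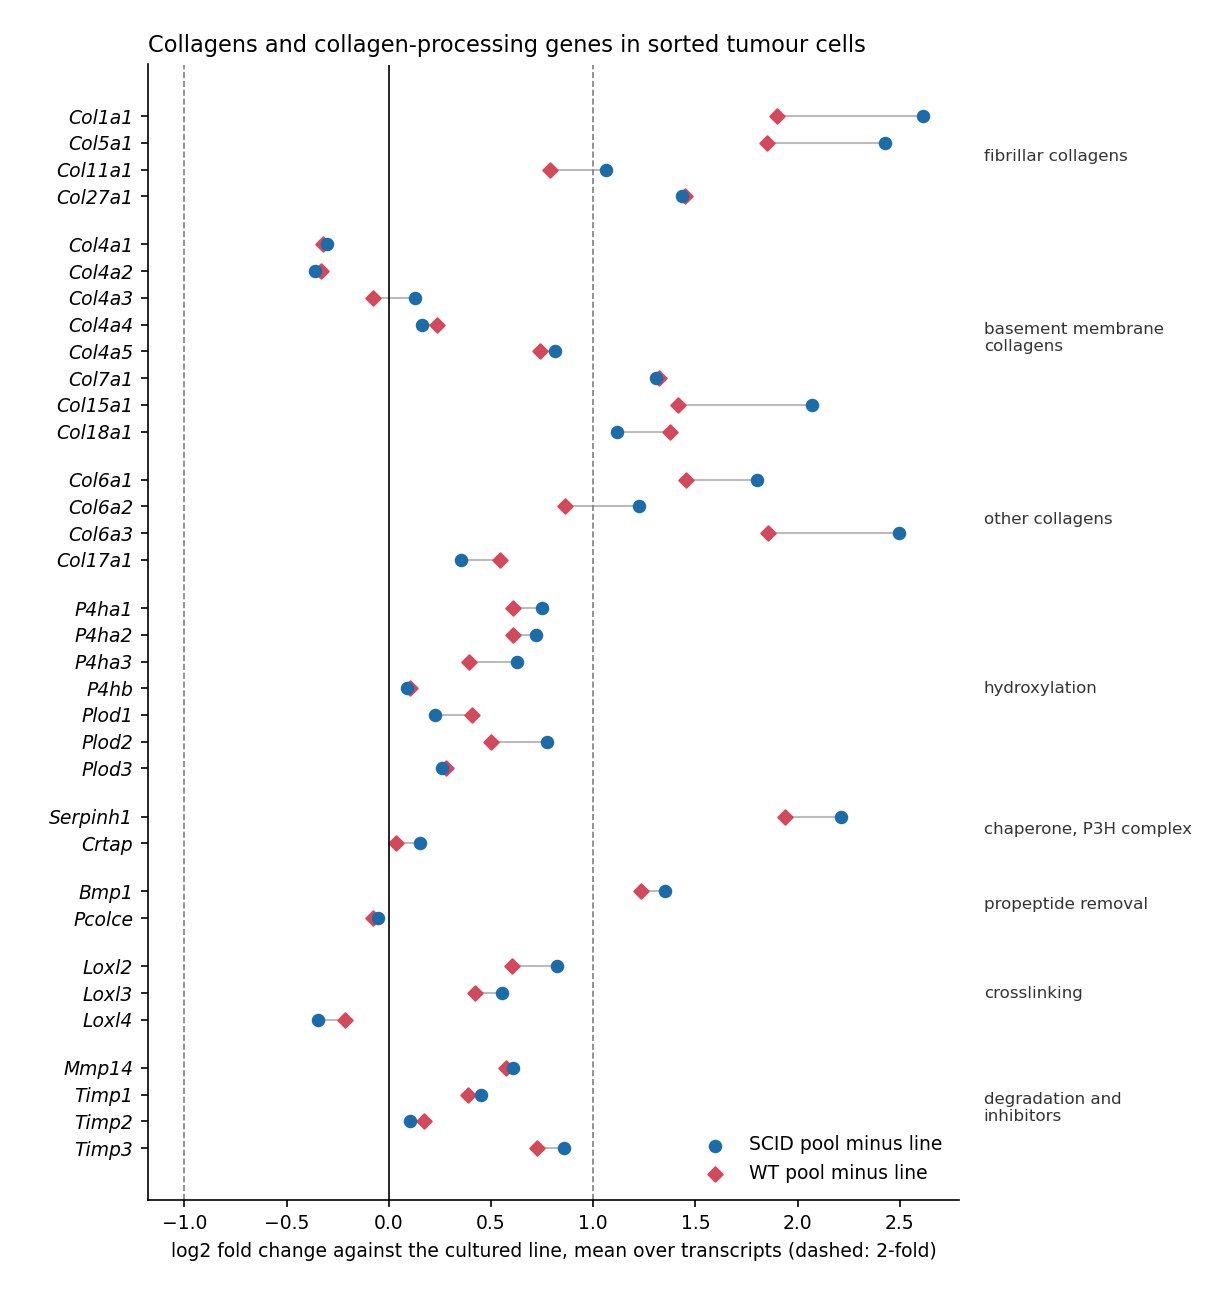
Log2 fold change against the cultured line (x axis) for each of the 34 genes (rows), grouped by class or step; circles are the SCID pool, diamonds the WT pool, 1 library each, and dashed lines mark 2-fold. Col1a1, Col5a1, Col6a3, Col15a1 and Serpinh1 lie farthest right in the SCID pool. Col4a1, Col4a2, Loxl4 and, close to 0, Pcolce lie left of 0 in both pools.

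The fibrillar class held the highest gene value of SCID minus line. Col1a1, the major chain of type I collagen, was 2.61 (6.11-fold) above the line in the SCID pool, rank 1 of 11886 genes, and 1.90 (3.73-fold) in the WT pool, rank 43. Col5a1, a chain of the type V collagen that nucleates type I fibrils, was at 2.43 (5.39-fold, rank 3) in SCID and 1.85 (3.61-fold, rank 56) in WT. Both genes were thus past 2-fold in either pool, and lower in WT than in SCID by less than 2-fold. Col11a1, the type XI chain of thin fibrils and cartilage, was at 1.07 in SCID and 0.79 in WT, and at 0.94 in SCID once the GC and length trend was removed, which ends its call. Col27a1, a fibrillar chain with a shorter helix, was at 1.43 and 1.45, nearly the same in both pools. With the GC and length trend removed, Col27a1 was at 1.06 and Col5a1 at 2.07 in SCID, both still past 2-fold. Col1a1 lies at chr11:94936224-94953042 and Col5a1 at chr2:27886425-28039510, both on the forward strand, by the coordinates of the authors' deposited table, which match GRCm38 and are given for the whole transcript. Col1a2, Col2a1, Col3a1, Col5a2, Col5a3, Col11a2 and Col24a1, the other fibrillar genes, had no row, so the partner chains of types I and V were not analysed here.

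Among other collagens, the 3 main chains of type VI, which forms beaded microfibrils around cells, were all higher in the SCID pool. Col6a3 (chr1:90766860-90843971, reverse strand) was at 2.49 (5.63-fold, rank 2) in SCID and 1.85 (3.62-fold) in WT. Col6a1 was at 1.80 (3.48-fold) and 1.46 (2.74-fold). Col6a2 was at 1.22 in SCID and at 0.86, within 2-fold, in WT. The chains stood in the order Col6a3, Col6a1, Col6a2 in both pools. Col17a1, the transmembrane collagen of epithelial hemidesmosomes, was at 0.35 in SCID and 0.55 in WT, within 2-fold in each.

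Basement membrane collagens split into 2 sets. Type IV chains stayed within 2-fold, as did most of all genes. Col4a1 and Col4a2, which pair in the common type IV trimer, were at -0.30 and -0.36 in SCID and at -0.32 and -0.33 in WT. With the GC and length trend removed they were at -0.57 and -0.71 in SCID and at -0.65 and -0.75 in WT, still within 2-fold. Col4a3 and Col4a4, chains of the restricted trimer of kidney and lung, were at 0.13 and 0.16 in SCID and at -0.08 and 0.24 in WT; removal of the trend put both at or below -0.02 in either pool. Col4a5, their partner, was at 0.81 and 0.74, the highest of the type IV genes. The 3 genes of other collagens in or at the membrane were past 2-fold in both pools. Col7a1, the chain of anchoring fibrils, was at 1.31 and 1.32, but at 0.81 and 0.76 with the GC and length trend removed, which ends both calls. Col15a1 (chr4:47208012-47313165, forward strand), a proteoglycan collagen next to basement membranes, was at 2.07 (4.20-fold, rank 11) in SCID and 1.41 (2.67-fold) in WT. Col18a1, whose C-terminal fragment is endostatin, was at 1.12 (2.17-fold) in SCID and 1.37 (2.59-fold) in WT, and at 0.86 in SCID with the trend removed.

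Col4a1 and Col4a2 lie head to head, and so do Col4a4 and Col4a3. In the authors' deposited table the first exons of Col4a1 (chr8:11198423-11312826, reverse) and Col4a2 (chr8:11312805-11449287, forward) overlap by 22 bases. Col4a4 (chr1:82450723-82586849, reverse) and Col4a3 (chr1:82586921-82722059, forward) start with 71 bases between them. The neighbours Col4a1 and Col4a2 differed from each other by less than the SD between transcripts in each of the 3 comparisons. Col4a4 and Col4a3 were at 0.07 and -0.21 in WT minus SCID, farther apart than that SD of 0.22. Against the line they were at 0.16 and 0.13 in SCID and at 0.24 and -0.08 in WT. The library kit keeps strand, but whether the counting used it is not stated. The overlap is 0.33% of the exonic bases of Col4a1.

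Among genes that fold and modify the chains, Serpinh1 stood far above the rest. It lies at chr7:99345375-99353239 on the reverse strand and encodes HSP47, the chaperone that binds procollagen, and was at 2.22 (4.64-fold, rank 6) in SCID and 1.94 (3.83-fold, rank 36) in WT, the highest of the 34 in WT. That value rests on 1 of the 4 RefSeq transcripts of the gene. Crtap, a subunit of the prolyl 3-hydroxylase complex, was at 0.15 and 0.04. The 7 hydroxylase genes were all above 0 and within 2-fold in both pools, with a median of 0.63 in SCID and 0.41 in WT. Of all genes 48.3% lay above 0 in SCID and 48.6% in WT. Past 2-fold, 3.65% of all genes were higher and 2.62% lower in SCID, and 4.12% and 2.03% in WT. P4ha1, P4ha2 and P4ha3, the catalytic subunits of prolyl 4-hydroxylase, were at 0.75, 0.72 and 0.63 in SCID and at 0.61, 0.61 and 0.39 in WT. P4hb, their shared subunit and a general protein disulphide isomerase, was at 0.09 and 0.10. Of the lysyl hydroxylases, Plod2, which modifies the telopeptides that carry crosslinks, was at 0.77 in SCID and 0.50 in WT, Plod1 at 0.23 and 0.41 and Plod3 at 0.26 and 0.28.

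Of the extracellular steps, propeptide removal held the only other gene past 2-fold. Bmp1 (chr14:70474555-70520260, reverse strand), the C-propeptidase of the fibrillar collagens, was at 1.35 (2.55-fold) in SCID and 1.23 (2.35-fold) in WT, and at 0.98 in WT on its coding transcript alone, just under the call. Pcolce, the enhancer of that cleavage, was at -0.05 and -0.08, the first of which was 0.03 with the GC and length trend removed. Among lysyl oxidases, which form the crosslinks, Loxl2 was at 0.82 and 0.60, Loxl3 at 0.55 and 0.42, and Loxl4 on the other side of 0 at -0.34 and -0.22. Mmp14, the membrane-bound collagenase, was at 0.61 and 0.57. The inhibitors of metalloproteinases were also above 0: Timp3 was at 0.86 and 0.73, Timp1 at 0.45 and 0.39, and Timp2 at 0.11 and 0.17. Lox, Loxl1, Fkbp10 and Mmp2 had no row and were not analysed here.

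Parts of Loxl3, Plod3, Loxl2 and Plod2 lie opposite another gene. Htra2 covers 13.1% of the exonic bases of Loxl3 on the other strand, and Znhit1 covers 16.1% of those of Plod3. For Loxl2 and Plod2 the share was 9.89% and at most 9.48%, to genes with no row. Htra2 was at -0.83 in SCID minus line, below 0 where Loxl3 was above it. The 2 transcripts of Znhit1 were at -0.69 and 0.09 in the authors' deposited table. Their part in the values of Loxl3 and Plod3 was not tested.

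Between the tumour pools no gene of the 34 passed 2-fold, in either direction, beside 0.303% of all genes higher and 0.0168% lower in WT. The median was -0.12 beside 0.00 over all genes, and 11 of 34 lay above 0, beside 51.5% of all genes, or 6 with the GC and length trend removed. Col1a1 was lower in the WT pool at -0.71 (1.64-fold), the rank 7 lowest value of 11886. Col15a1 at -0.66 (rank 14), Col6a3 at -0.64 (rank 15) and Col5a1 at -0.58 (rank 22) followed. Col6a2 was at -0.36, Col6a1 at -0.34, Serpinh1 at -0.28, Plod2 at -0.28 and Col11a1 at -0.27. These 9 genes lay in the lowest 2.5% of all genes and 0 of the 34 lay in the highest 2.5%. The comparison is of 2 libraries, so the spread between tumours of 1 host is not known and none of these differences was tested.

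The other genes of the set lay within the middle 95% of all genes, on either side of 0. Col18a1 was at 0.26, Col17a1 at 0.19, Plod1 at 0.18, Loxl4 at 0.13, Col4a4 at 0.07 and Timp2 at 0.07. Col4a2, Plod3, Col27a1, Col7a1 and P4hb lay between 0.01 and 0.03, and each lay on the other side of 0, at -0.03 to -0.05, with the trend removed. Below 0, P4ha3 was at -0.23, Loxl2 at -0.22, Col4a3 at -0.21 and P4ha1 at -0.14. Loxl3 and Timp3 were both at -0.13, Crtap and Bmp1 at -0.12 and P4ha2 at -0.11. Col4a5 was at -0.07, Timp1 at -0.06, and Mmp14, Pcolce and Col4a1 were at -0.03, -0.03 and -0.02. The fibrillar median was -0.43, or -0.27 without Col1a1, the median of the other collagens -0.35 and that of the basement membrane genes 0.00, while the 7 hydroxylases had a median of -0.11.

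**Figure D3:**
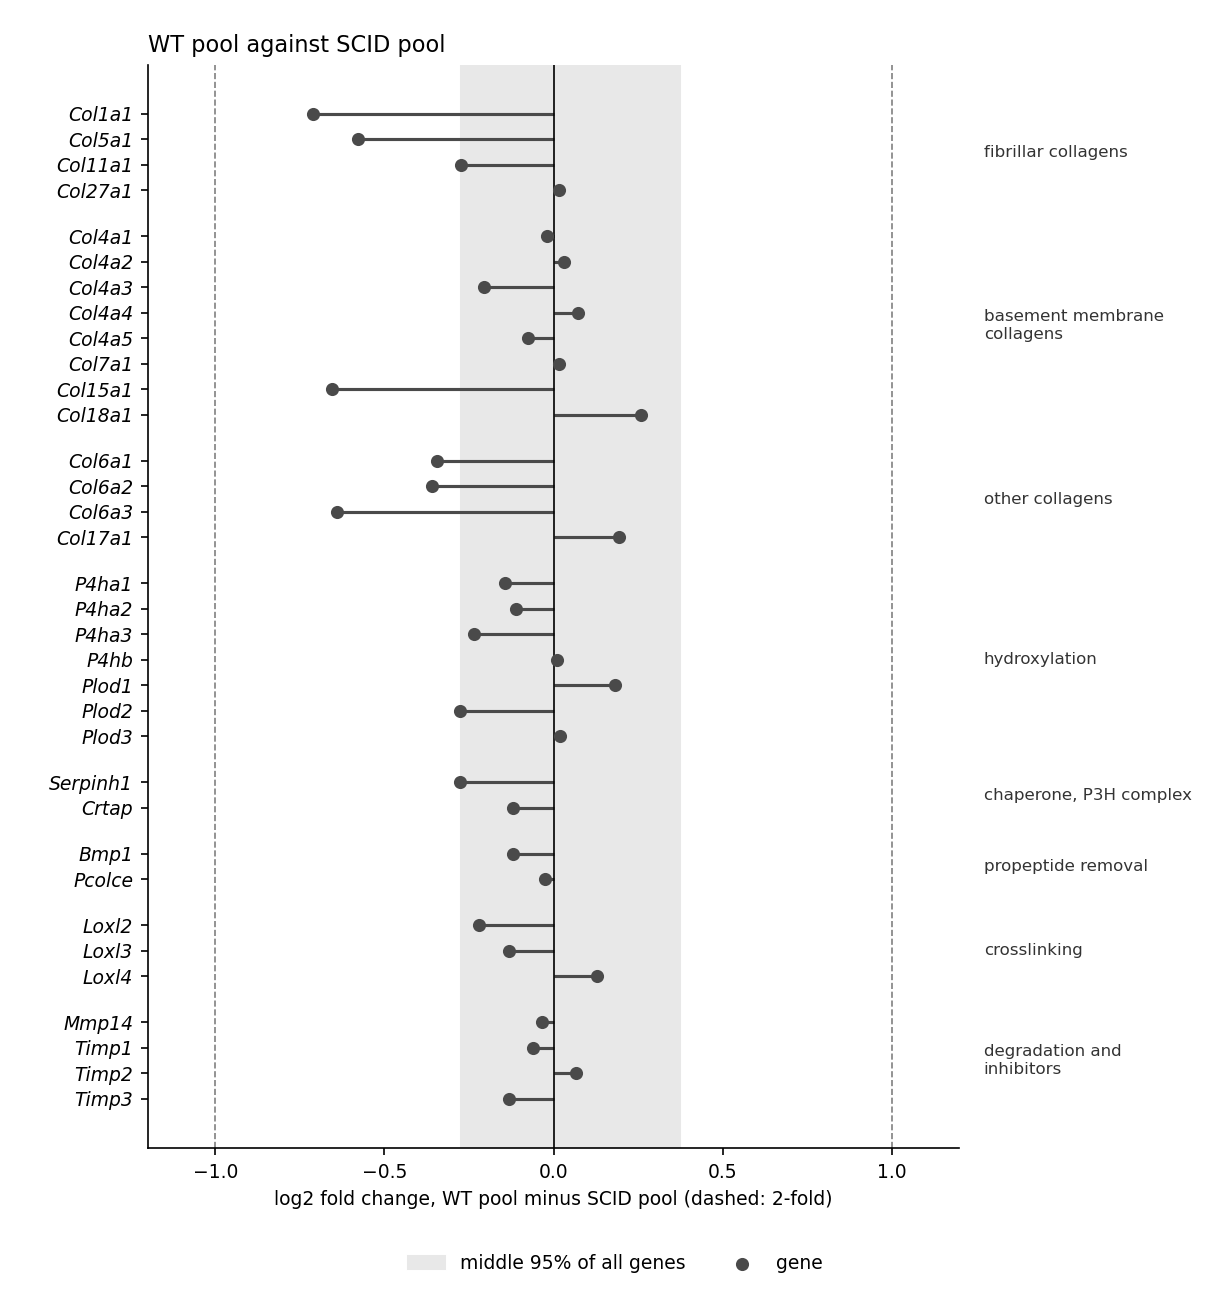
Log2 fold change of the WT pool minus the SCID pool (x axis) for the 34 genes (rows), with the middle 95% of all genes shaded and 2-fold dashed. Col1a1, Col15a1, Col6a3 and Col5a1 reach -0.58 to -0.71, and no gene reaches 2-fold.

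Of the 34 genes 9 had 2 or 3 transcripts in the table, which can share reads and are not replicates. For Col18a1 the transcripts start 52825 bases apart. In the authors' deposited table the transcript from the inner start (NM_001109991) was at 1.40 in SCID and 1.73 in WT, and the one from the outer start (NM_009929) at 0.83 and 1.02. Both transcripts were higher in WT than in SCID, by 0.33 and 0.19. For Col6a2, with starts 226 bases apart, the deposited values were 1.53 and 0.91 in SCID and 1.04 and 0.69 in WT for NM_146007 and NM_001347207. The coding transcript of Bmp1 was at 1.06 and its non-coding transcript at 1.64 in SCID in the authors' deposited table. The 3 transcripts of P4ha1, which have the same start and end, were at 0.98, 0.76 and 0.51 in the authors' deposited table. Timp1 was the one gene whose transcripts lay on opposite sides of 0 between the pools, at -0.28 and 0.16 in the authors' deposited table. For Loxl4, P4ha2, Plod2 and Col4a1 the transcripts differed by 0.33, 0.11, 0.02 and 0.000117 in SCID minus line.

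**Figure D4:**
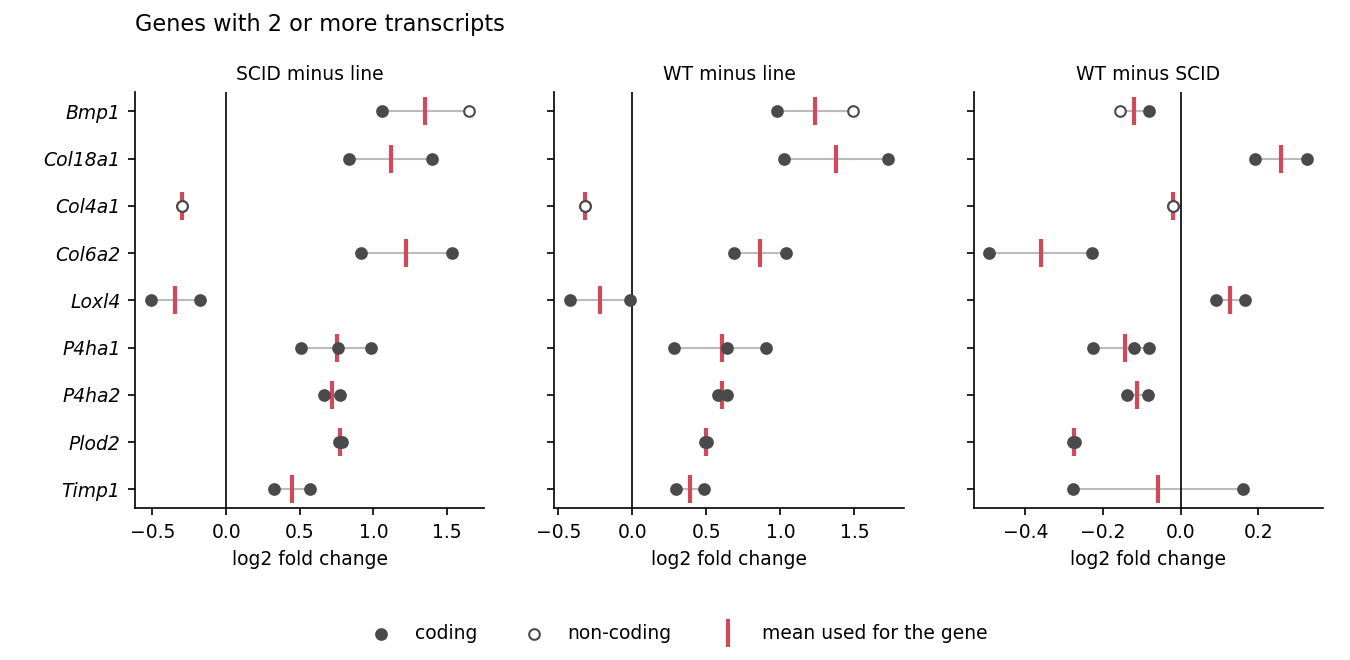
Log2 fold changes of each transcript of the 9 genes with 2 or more (points; open points are non-coding, red bars the mean used for the gene) in the 3 comparisons (panels). Transcripts of Col18a1, Col6a2, Bmp1 and P4ha1 are spread by 0.47 to 0.62 in SCID minus line, while those of Plod2 and Col4a1 nearly coincide.

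Promoters are shown for 3 of the highest genes in SCID minus line, so that the upstream sequence of genes with like values can be compared. RefSeq (GRCm38.p6) gave 30 start sites for 28 of the 34 genes. Col1a1, Col4a3, Plod2, Bmp1, Loxl2 and Loxl3 had no entry. Some of the 250-base windows before these starts hold annotated exon bases, up to all 250 in Col4a1 and Col4a2. The 2 windows of Col6a2 overlap each other. The 250 bases before the start are printed 5′ to 3′ on the gene's strand, with GC boxes (GGGCGG on either strand) in capitals.
Col5a1 (chr2:27886175-27886424, forward strand): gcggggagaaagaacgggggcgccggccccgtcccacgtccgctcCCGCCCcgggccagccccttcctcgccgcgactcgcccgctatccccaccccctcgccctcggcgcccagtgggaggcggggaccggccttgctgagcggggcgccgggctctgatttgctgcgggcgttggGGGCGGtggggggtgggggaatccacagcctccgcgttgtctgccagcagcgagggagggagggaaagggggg
Col6a3 (chr1:90843972-90844221, reverse strand): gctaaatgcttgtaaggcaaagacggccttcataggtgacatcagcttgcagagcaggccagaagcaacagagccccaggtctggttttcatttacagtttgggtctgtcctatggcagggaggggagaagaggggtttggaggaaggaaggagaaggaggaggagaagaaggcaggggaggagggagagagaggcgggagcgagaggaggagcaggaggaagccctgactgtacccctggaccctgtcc
Serpinh1 (chr7:99353240-99353489, reverse strand): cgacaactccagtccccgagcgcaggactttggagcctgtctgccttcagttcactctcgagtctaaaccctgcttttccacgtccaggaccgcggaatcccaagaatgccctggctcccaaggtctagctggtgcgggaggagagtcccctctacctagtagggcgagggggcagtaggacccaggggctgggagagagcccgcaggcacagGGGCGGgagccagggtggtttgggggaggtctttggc

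Col5a1 and Col6a3 were 0.06 apart in SCID minus line. The window of Col5a1 was 76.4% GC with 2 GC boxes and that of Col6a3 57.2% GC with 0. Any relation between the windows and the gene values was not tested. The window of Serpinh1 held 1 GC box at 63.6% GC. Of the 30 windows 21 (70%) held a GC box, beside 32.7% of 32851 RefSeq windows of that length. Those 32851 were not limited to genes with a row, as the 30 were, so no share here is like for like. CCAAT on either strand was in 12 (40%) beside 33.8%, TATAAA in 3 (10%) beside 12.4%, and ACGTG, the core of hypoxia response elements, in 9 (30%) beside 16.6%. The windows with ACGTG included those of P4ha1, P4ha2, P4hb, Serpinh1 and Col5a1. TGANTCA was found, of the 30 windows, only in that of Col6a1 (3.33% beside 6.75%), and 0 windows held the heat shock element, beside 0.466%. Motifs were counted on both strands and their overlaps were kept; a match is a description of the letters and not a binding site.

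The genes most like Col1a1 were found by the distance over its 2 values against the line. The nearest 5 of all genes were Col6a3 (distance 0.13), Col5a1 (0.19), Has2 (0.36), Atf3 (0.40) and Serpinh1 (0.40). Has2, a hyaluronan synthase, was at 2.25 in SCID and 1.97 in WT, and Atf3, a stress-induced transcription factor, at 2.22 and 1.95.

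Further genes of collagen biology were taken from lists covering 121 genes, of which 80 had a value. Against the line 7 were higher and 2 lower in SCID, and 9 higher and 1 lower in WT, beside 3.65% and 2.62% of all genes in SCID and 4.12% and 2.03% in WT. Genes of fibril partners were the highest list, with 5 of 8 measured higher in SCID and 6 of 8 in WT and medians of 1.29 and 1.32. Thbs1 (thrombospondin 1) was at 2.02 and 2.11 and Fn1 (fibronectin) at 1.82 in both pools; Pxdn (peroxidasin, which crosslinks type IV collagen) was at 0.74 and 0.64, and Tgm2 (a transglutaminase) at 0.52 and 1.22. Of 12 genes of collagen breakdown and uptake, 2 were higher in SCID and 3 in WT. Mmp19 was at 1.42 and 2.03 and Mmp13, a collagenase, at 1.08 and 1.06, while Pepd, which releases proline from dipeptides, was at -0.29 and -0.22 and Mmp24 at -0.20 and -0.17.

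The general export and folding machinery gave medians near 0. Of all genes 3.65% were higher and 2.62% lower in SCID, and 4.12% and 2.03% in WT. In lists this short, 0 past 2-fold is therefore close to the share of all genes. The 18 secretion genes had a median of 0.01 in SCID and -0.04 in WT with 0 past 2-fold, from Scfd1 at 0.33 and Sec23a at 0.30 to Sec23b at -0.27 and Sec13 at -0.49 in SCID. In WT these were at 0.12, 0.15, -0.15 and -0.50, and Sec23b was at 0.49 by its farthest transcript. The 17 folding and glycosylation genes had medians of 0.05 and -0.01 with 0 past 2-fold, or 1 in SCID (Fkbp7 at 1.01) with the GC and length trend removed. Fkbp7 at 0.95 and Fkbp14 at 0.94, a pair of endoplasmic reticulum prolyl isomerases, were the highest in SCID, and Tmem38b at -0.21 and Fkbp9 at -0.18 the lowest; in WT they were at 0.70, 0.72, -0.07 and -0.27. Serpinh1 was above each measured gene of both lists in both pools. The 9 measured collagen receptor genes had medians of 0.39 and 0.43 with 0 past 2-fold. Sdc4 at 0.63 and Itga10 at 0.43 were the highest in SCID and Itga1, the integrin chain of type IV collagen binding, at -0.57 and Itga3 at -0.07 the lowest; in WT they were at 0.59, 0.60, -0.30 and 0.03. Of 3 propeptidase genes with a row, Furin was at 0.28, Mep1a at -0.34 and Pcolce2 at -0.36 in SCID, and at 0.44, -0.40 and -0.38 in WT.

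Most genes that supply proline and glycine lay below 0, while most collagens lay above it. Of 14, 2 were lower by 2-fold in SCID and 1 in WT, beside 2.62% and 2.03% of all genes. Only 1 of 14 was above 0 in each pool, beside 48.3% and 48.6% of all genes, and the medians were -0.65 and -0.51. Psat1, of serine synthesis, was at -1.21 and -1.10, and Shmt2, which makes glycine in mitochondria, at -1.10 and -0.97, or -1.01 in WT with the GC and length trend removed. Pycr1, the last enzyme of proline synthesis, was at -0.04 in both.

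**Figure D5:**
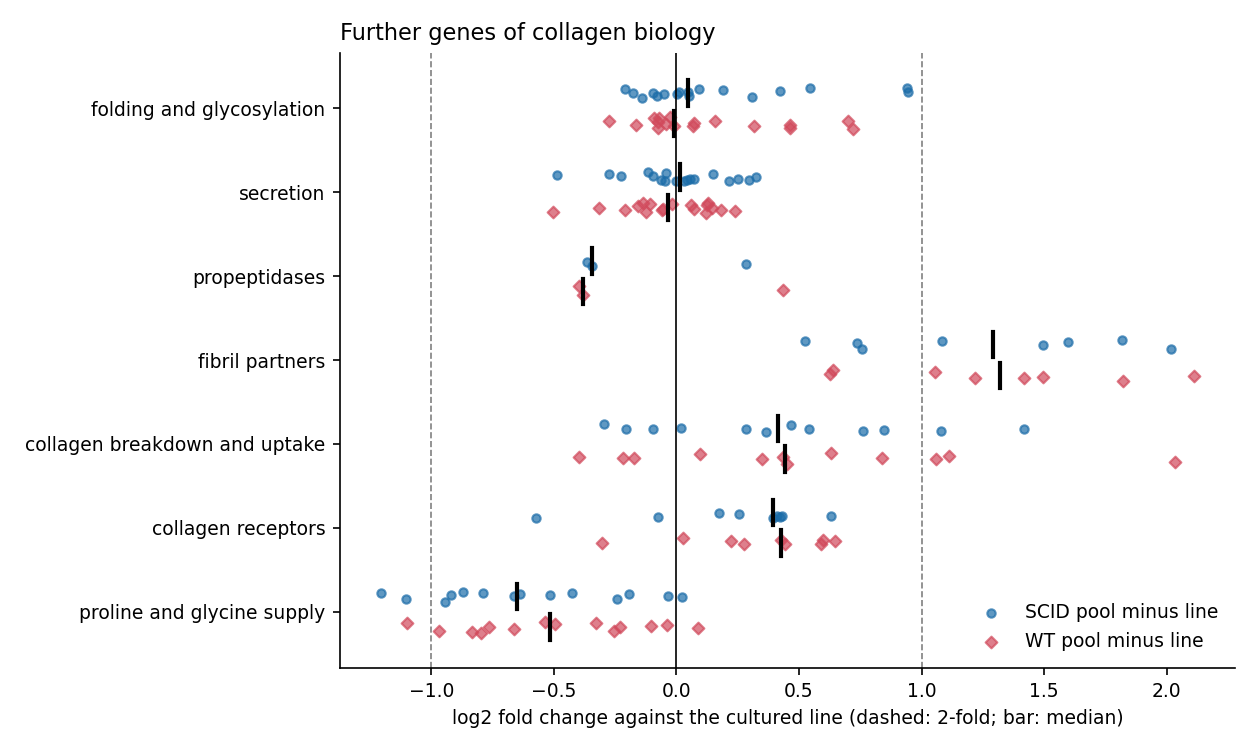
Log2 fold change against the line (x axis) of each measured gene of 7 further lists (rows); circles are the SCID pool, diamonds the WT pool, and black bars the list medians. Fibril partners have medians of 1.29 and 1.32, secretion genes 0.01 and -0.04, and proline and glycine supply genes -0.65 and -0.51.

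Markers of host cells are given beside these values because fibroblasts, pericytes and endothelial cells make collagen. Of 22 fibroblast markers that are not collagens 5 had a row. Has1 was at 1.61 in SCID and 1.55 in WT, Ly6c1 at 0.63 and 1.04, S100a4 at 0.43 and 0.71, Fbln2 at 0.15 and 0.08 and Fbln1 at -0.05 and -0.12. Their medians were 0.43 and 0.71, and -0.06 for WT minus SCID. The defining fibroblast genes Pdgfra, Pdgfrb, Dcn, Lum and Thy1 had no row. Of 12 pericyte and smooth muscle markers only Tagln had a row, at 1.83 in SCID, 1.09 in WT and -0.75 for WT minus SCID. Of 15 endothelial markers 4 had a row, with medians of 1.17 and 1.23, and 0.09 for WT minus SCID. Flt1 was at 1.63 and 1.66, Plvap at 1.22 and 1.37, Eng at 1.12 and 0.93 and Kdr at 0.80 and 1.09. Of 16 macrophage markers 4 had a row, with medians of 0.70 and 1.73. Apoe was at 1.02 and 2.77, Cd68 at 0.99 and 2.25, Cd14 at 0.41 and 1.21 and Mrc1 at -0.06 and 0.77, so that WT minus SCID was above 0 for all 4, with a median of 1.04. Of all host markers with a row, WT minus SCID was thus below 0 for Tagln, Has1, Fbln1, Fbln2 and Eng, and above 0 for the others. Among the fibroblast markers, Has1, Fbln1 and Fbln2 were close to 0 at -0.06, -0.07 and -0.07. Ly6c1 and S100a4 were at 0.41 and 0.27, and Eng was at -0.19. All 12 epithelial markers had a row, with medians of -0.24 and -0.13 (Epcam at 1.25 and 1.59, Krt7 at -1.18 and -0.99). For WT minus SCID 11 of 12 epithelial markers lay above 0, with a median of 0.15, beside 51.5% of all genes. The part of host cells in the collagen values was not tested.

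The share of collagens with a row was itself uneven. By RefSeq's list, 16 of 44 collagen genes (36.4%) had one, beside 50.5% of 21900 protein-coding genes and 18 of the 22 processing genes. Basement membrane genes were covered in 8 of 9 cases, with Col4a6 the exception, fibrillar genes in 4 of 11 and the remaining collagens in 4 of 24. How rows were chosen for the table is not stated, so the counts above describe measured genes only.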

How the data were processed

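Poly(A) RNA of 3 libraries was sequenced in pairs of 75 bases at a stated mean depth of 40M reads, per the labels' protocols. The values used are log2 fold changes between libraries in the authors' deposited table, for 17910 RefSeq transcripts. The submitters' processing notes list BWA, Partek, R 3.5.1, DESeq2 1.20.0 and mm9, with no role or order; any shrinkage or filter on rows is not stated. The coordinates match GRCm38: all 44 transcripts of the 34 genes lay on the RefSeq chromosome and 24 had the RefSeq gene start. Subtracting the WT column from the SCID column gave the remaining column to within 1e-12 in all 17910 rows; that column was therefore taken as SCID minus WT and is printed with the opposite sign.

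Gene values are means over transcripts (Python 3.11.15, pandas 2.3.3). The planned unit of description, folds with no test, was kept since each group has 1 library. GC content and length came from GENCODE M21 for 93.2% of transcripts. The gene means, 2-fold calls, SD between transcripts and trend removal were tested on simulated data. The counts of exons, repeats, overlaps and motifs were not. The genes and lists were chosen with earlier results of these data known. Every measured gene of the set is named; of the further lists the 2 highest and 2 lowest in SCID minus line, of the fibroblast and pericyte markers all, and of other markers the 2 farthest from 0, with Eng, Kdr, Cd14 and Mrc1 added after their values were seen. One gene of the proline and glycine supply list that this rule would name is not reported here.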

Additional observations from a re-analysis of the deposited data

Results flagged for a closer look

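Col4a3 was above 0 in the SCID pool and below 0 in the WT pool against the line, at 0.13 and -0.08, so that WT minus SCID was -0.21; with the GC and length trend removed both values were below 0, at -0.06 and -0.28. Itga3, of the receptor list, was at -0.07 and 0.03 (WT minus SCID 0.10). With the GC and length trend removed, Itga3 was at -0.25 in SCID and -0.21 in WT against the line, below 0 in both. With 1 library per group the opposite direction was not tested, and each of these values is smaller than the SD between transcripts of a gene.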

How the results depend on the processing

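With a 4-fold threshold 5 of the 34 genes were higher in SCID minus line and 0 in WT minus line, in place of 12 and 10. With a 1.5-fold threshold 20 and 17 were higher, and 3 were lower in WT minus SCID in place of 0. The other alternatives (median or farthest transcript, coding transcripts, genes with 1 transcript, centring on the median gene, and removal of the GC and length trend) left the counts of higher genes between 9 and 12 in SCID minus line and between 8 and 11 in WT minus line. The medians of the 34 lay between 0.63 and 0.78 in SCID minus line, 0.56 and 0.60 in WT minus line, and -0.13 and -0.09 in WT minus SCID, also without the farthest gene or without Col1a1 and Col6a3. Among the 34 genes the calls that changed were those of Col7a1, Col11a1, Col18a1 and Bmp1, given above, and Col6a2 in WT minus line, at 1.04 with its farthest transcript. Among the other named genes, the trend's removal took Fkbp7 (1.01) and Cd68 (1.15; 1.00 when centred) past 2-fold in SCID minus line, and Shmt2 (-1.01) and Krt7 (-1.07) in WT minus line. No called gene value changed sign. Near 0 several uncalled values did with the GC and length trend removed, among them Pycr1 in SCID minus line at 0.01 and Fbln2 in WT minus line at -0.15. No paired analysis was possible because each group has 1 library. Depth is unknown, so no limit by counting error can be given, and a gene without a row cannot be read as low.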
